A study of Mus musculus with 4 samples.

Results

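Genes of the mitochondrial cell death pathway and of the p53 response were examined in whole mouse retina of stage E13.5 (embryonic days), with 2 control libraries and 2 from retinae labelled Isl1cKO. The set holds 38 genes of the 25239 gene IDs in the tables, chosen by symbol: the Bcl2 family, caspases with their activators and inhibitors, the death receptor Fas, and p53 (gene Trp53) with its inhibitor and targets. Repeated rows of a gene were summed. The study profiled gene expression after conditional knockout (cKO) of Isl1, a LIM-homeodomain transcription factor of developing retinal ganglion cells. The Cre driver, the control genotype, the sex of the embryos and the number of retinae pooled are not stated in the labels. Nor do the labels say whether the 2 libraries of a group came from separate embryos, so p-values measure only the spread between these libraries. In control this spread may be technical. The Isl1cKO libraries differed in Xist, an RNA of female cells, at 287 TPM in replicate 1 and 0.501 TPM in replicate 2. They were therefore not repeats of the same RNA sample, and sex was not balanced within that group. Xist stood at 235 and 209 TPM in control, so sex was not balanced between the groups either. The part of sex in the values below was not tested.

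In the mitochondrial pathway, BH3-only proteins neutralise the pro-survival Bcl2 proteins or activate Bax and Bak, which then open the outer mitochondrial membrane. Cytochrome c leaves through the pore and joins Apaf1 and caspase-9 in the apoptosome, while inhibitor of apoptosis proteins hold caspases back. p53 is a transcription factor that is controlled mostly at the protein level by Mdm2, and it raises transcription of cell cycle, repair and death genes. Programmed cell death removes ganglion cells during normal development of the retina, and mice that lack Isl1 in the retina are known to lose ganglion cells.

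Promoters of members are shown for the decamer that p53 binds, the p53 half-site, which only some of the p53 targets hold near their start. RefSeq start sites of assembly GRCm38.p6 were matched for 34 of the 38 genes, and the half-site, which reads as the same pattern on either strand, was searched in 250 bases before to 50 bases after each start. It was present in a window of 8 of these 34 genes (23.5%): Aen, Bax, Birc2, Bmf, Ccng1, Cdkn1a, Mdm2 and Trp53. The windows of the p53 targets Bbc3, Eda2r, Phlda3 and Plk2 did not hold it. It was present in 9.55% of 27025 genes and 8.36% of 32851 windows in the whole table. The 250 bases before the start are printed 5′ to 3′ for 3 genes of the p53 response, with the half-sites in capitals.
Cdkn1a at chr17:29090729-29090978 (plus strand): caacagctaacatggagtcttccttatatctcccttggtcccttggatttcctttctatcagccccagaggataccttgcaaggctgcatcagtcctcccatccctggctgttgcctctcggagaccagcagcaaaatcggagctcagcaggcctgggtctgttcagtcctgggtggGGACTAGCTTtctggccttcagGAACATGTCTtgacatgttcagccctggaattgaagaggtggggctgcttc
Ccng1 at chr11:40755287-40755536 (minus strand): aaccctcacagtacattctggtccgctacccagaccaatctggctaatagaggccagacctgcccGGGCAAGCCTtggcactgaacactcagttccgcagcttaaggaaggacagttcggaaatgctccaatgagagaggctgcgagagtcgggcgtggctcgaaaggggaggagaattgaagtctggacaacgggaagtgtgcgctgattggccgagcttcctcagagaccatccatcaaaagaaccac
Mdm2 at chr10:117710759-117711008 (minus strand): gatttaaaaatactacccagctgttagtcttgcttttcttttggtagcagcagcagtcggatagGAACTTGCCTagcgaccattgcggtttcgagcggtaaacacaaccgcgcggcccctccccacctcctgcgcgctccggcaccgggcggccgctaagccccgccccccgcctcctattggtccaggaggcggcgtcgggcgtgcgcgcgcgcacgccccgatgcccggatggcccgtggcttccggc
The Cdkn1a window belongs to the upstream of its 2 start sites and holds 2 half-sites, the first bases of which lie 73 and 51 bases before the start. The window of its other start site holds 0. In Ccng1 and Mdm2 the single half-site begins 185 and 186 bases before the start. The promoter of Hrk, the member whose level differed most between the groups, is printed with the letters TAAT, the core that homeodomain proteins bind, in capitals on either strand.
Hrk at chr5:118169514-118169763 (plus strand): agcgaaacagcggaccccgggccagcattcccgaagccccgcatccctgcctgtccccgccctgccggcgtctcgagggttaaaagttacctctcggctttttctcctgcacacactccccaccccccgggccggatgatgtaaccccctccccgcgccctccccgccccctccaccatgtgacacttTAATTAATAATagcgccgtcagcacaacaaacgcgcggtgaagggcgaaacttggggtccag
TAAT stands at 4 overlapping or adjoining places in this stretch, read over both strands, and the p53 half-site is not in these letters. At least 1 TAAT is present in 58.0% of all windows, and 4 or more in 11.6%. The windows of Bmf, the member with the largest difference in the other direction, hold it at 1, 3 and 2 places. The window of Casp8 holds it at 3 places, and those of Bcl2, Birc3 and Mcl1 at 0. A match of letters is a description and does not show that a factor binds there.

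Markers of retinal progenitors were abundant in every library, with a summed level over the 12 listed of 7001 to 8215 TPM (a level per transcript length, scaled to the same sum in every library). Isl1 itself stood at 242 and 201 TPM in control and at 321 and 223 TPM in Isl1cKO, so the targeted gene was not lower in the libraries labelled Isl1cKO. Its log2 fold change was 0.28 (SE 0.21, adjusted p = 0.683 in limma), and every direction below rests on the labels. The levels are per gene, with no values per exon, so they cannot show whether a part of Isl1 was removed. The labels could therefore not be checked. Isl1cKO replicate 2 stood apart: Xist was at 0.501 TPM there against 209 to 287 TPM in the other 3 libraries, and the summed level of 10 red blood cell genes was 205 TPM there against 1419 to 4170. The summed level of 13 lens genes was 247 and 307 TPM in control and 11.8 and 9.96 TPM in Isl1cKO, and the part of these other tissues in the values below was not tested. Fold changes were taken on log2(TPM + 1), which understates the change of low genes, over the 13984 genes with at least 1 TPM in at least 2 libraries. Limma called 69 of them at an adjusted p under 0.05, which is 0.493% of genes: 65 were lower in Isl1cKO (0.465%) and 4 higher (0.0286%).

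None of the cell death and p53 genes passed that test. Of the 38, 33 passed the filter on low values and 0 were called, against the background of 0.493%. At an unadjusted p under 0.05 there were 6 of 33, where 12.1% of all genes tested reached this (8.92% lower and 3.20% higher). Across the alternatives with all 4 libraries this count lay between 2 (FPKM, a related length-scaled unit, where 12.4% of all genes reached it) and 7 (no filter, 38 genes tested, 10.5%), and it was 4 in 5 of these 8 alternatives. It was 0 without control replicate 1 or 2 (4.99% and 7.81% of all genes), 8 without Isl1cKO replicate 1 (23.9%) and 5 without Isl1cKO replicate 2 (10.5%). Of the 6 genes, Hrk, Casp8, Birc3, Mcl1 and Bcl2 had lower levels in Isl1cKO, and Bmf had a higher level. The groups did not overlap in 18 of the 33 genes, 13 with both Isl1cKO values lower and 5 with both higher, where 44.9% of all genes did not overlap, 30.0% lower and 14.9% higher. Hrk and Birc3 entered the test through their control values alone, so they could enter it only by being higher there. The log2 fold change was below 0 in 22 of the 33 genes and in 63.8% of all genes. Its median was -0.10 over the 33 genes and -0.05 over all genes tested, and 28 of the 33 lay within 0.25 of zero, as did 79.5% of all genes.

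**Figure D1:**
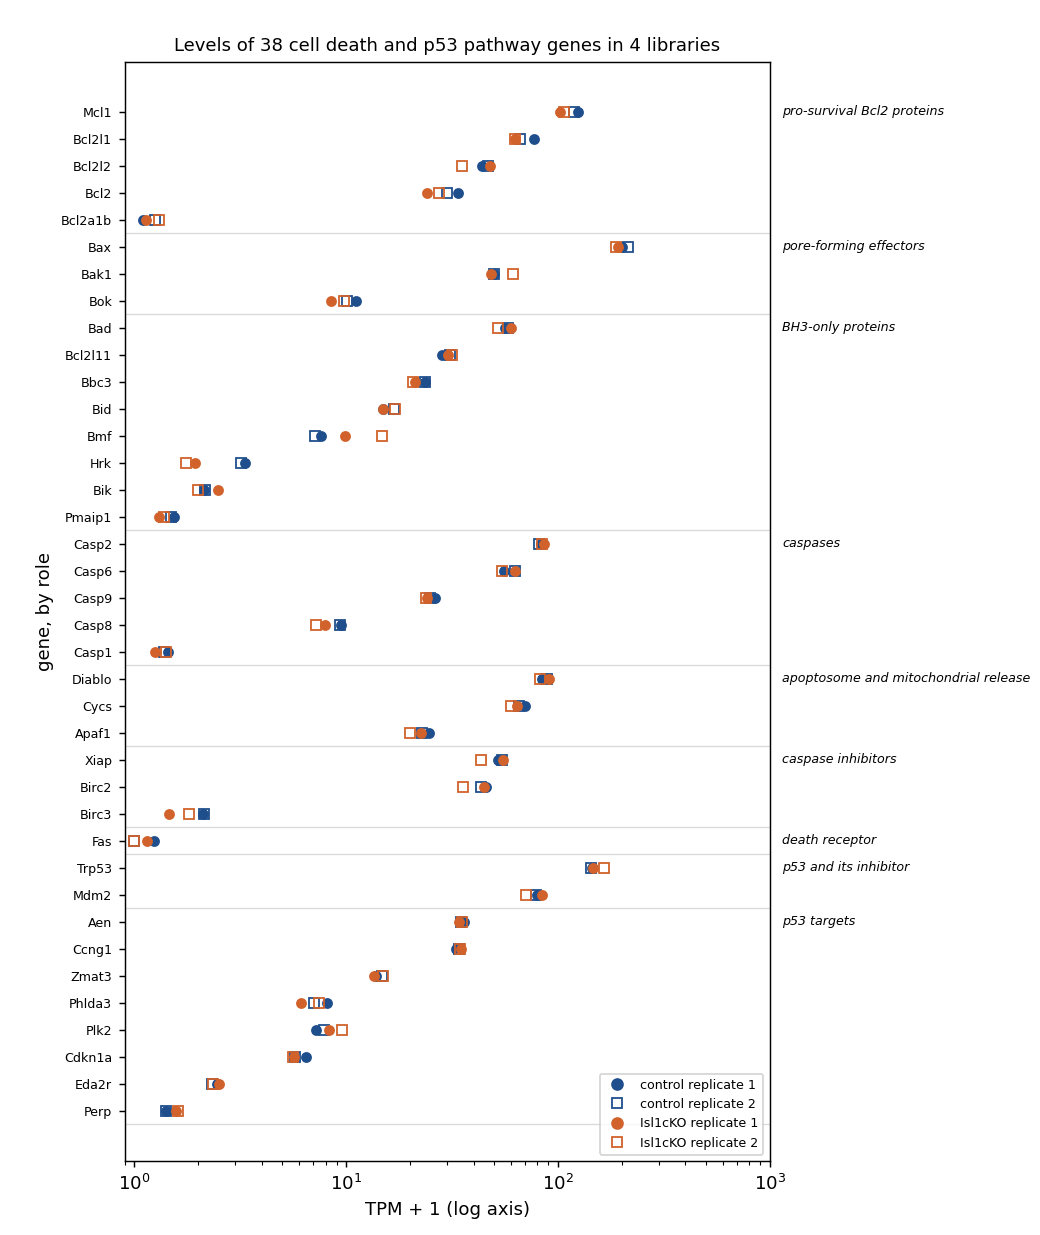
TPM + 1 (log axis) of the 38 genes in each of the 4 libraries, grouped by role. Blue symbols are control and orange symbols Isl1cKO, filled for replicate 1 and open for replicate 2; for most genes the 4 symbols lie close together, and Hrk and Bmf have the clearest gap between colours.

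The most abundant members were Bax, Trp53 and Mcl1, at control means of 206 ± 9.34, 144 ± 0.854 and 121 ± 3.26 TPM (SD, n = 2). A further 20 genes had control means from 10 to 100 TPM, 10 had means from 1 to 10 TPM, and 5 lay under 1 TPM. These 5 were Bcl2a1b, Pmaip1, Casp1, Fas and Perp, and they were not tested. Fas, a death receptor of the tumour necrosis factor receptor family, was listed at 0 in replicate 2 of each group and at 0.231 and 0.150 TPM in replicate 1 of control and Isl1cKO. Casp1, the inflammatory caspase that matures interleukin-1 beta, stood at 0.446 and 0.379 TPM in control and at 0.250 and 0.411 TPM in Isl1cKO. Bcl2a1b, a pro-survival gene of blood cells, ranged from 0.0948 to 0.307 TPM, and reads of its close paralogs Bcl2a1a and Bcl2a1d may have been divided among the copies in ways the tables do not record.

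Pro-survival Bcl2 proteins bind and restrain the death effectors, and all 4 tested members had lower mean levels in Isl1cKO. Their median log2 fold change was -0.21, where the median of all genes tested was -0.05 and 63.8% of those genes were below 0. Mcl1 (chromosome 3, 95658721 to 95663178), a short-lived pro-survival protein, stood at 123 and 119 TPM in control and at 101 and 106 TPM in Isl1cKO. Bcl2 (chromosome 1, 106538176 to 106714290, minus strand), the founding member of the family, stood at 32.8 and 29.1 TPM in control and at 23.1 and 26.6 TPM in Isl1cKO. The groups did not overlap in either gene, and the gap between the groups for Bcl2 was smaller than the difference between its 2 controls. The log2 fold change was -0.22 for Mcl1 (SE 0.08, 95% interval -0.44 to -0.00198, adjusted p = 0.409 in limma). It was -0.31 for Bcl2 (SE 0.12, 95% interval -0.61 to -0.000647, adjusted p = 0.412 in limma).

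Bcl2l1, which encodes Bcl-xL, stood at 76.2 and 65.2 TPM in control and at 61.9 and 61.4 TPM in Isl1cKO, again without overlap (log2 fold change -0.19, adjusted p = 0.573 in limma). This value was -0.0789 without control replicate 1 and -0.30 without control replicate 2. Bcl2l2, which encodes Bcl-w, stood at 42.7 and 45.8 TPM in control and at 46.9 and 34.2 TPM in Isl1cKO. Its 2 Isl1cKO values lay on either side of control, and its log2 fold change went from -0.14 to 0.08 without Isl1cKO replicate 2. Summed over the 5 pro-survival genes, TPM was 275 and 259 in control and 233 and 229 in Isl1cKO. The median of the 4 tested genes was -0.15 under median-ratio scaling of the libraries, which moved the median of all genes from -0.05 to 0.01.

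For the 3 pore-forming effectors, the log2 fold changes had their median at -0.12. Bax (chromosome 7, 45461695 to 45466898, minus strand), which is also a p53 target, stood at 199 and 212 TPM in control and at 191 and 188 TPM in Isl1cKO. The log2 fold change was -0.12 (95% interval -0.34 to 0.10, adjusted p = 0.650 in limma). Bak1 stood at 48.8 TPM in each control and at 47.5 and 60.7 TPM in Isl1cKO, so the libraries labelled Isl1cKO differed from each other by more than either differed from a control. Bok, a relative of Bax and Bak1 that is less well understood, stood at 10.2 and 9.06 TPM in control and at 7.52 and 8.76 TPM in Isl1cKO. Its log2 fold change was -0.22 (adjusted p = 0.538 in limma), and it was -0.31 without Isl1cKO replicate 2 and -0.12 with that library as the only one of its group. The summed pro-survival level divided by the summed level of the 3 effectors was 1.07 and 0.958 in control and 0.947 and 0.891 in Isl1cKO. These ratios did not overlap between the groups, yet the 2 controls differed from each other by more than control replicate 2 differed from either Isl1cKO library.

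BH3-only proteins, the sensors that start the pathway, held the member with the largest difference in each direction. Hrk (chromosome 5, 118169764 to 118189478), a BH3-only protein of neurons, stood at 2.32 and 2.19 TPM in control and at 0.934 and 0.757 TPM in Isl1cKO. The mean in Isl1cKO, 0.846 ± 0.125 TPM, was 37.5% of the control mean, 2.25 ± 0.0935 TPM (SD, n = 2). Both libraries of each group lay close together and the groups were far apart relative to that spread. The log2 fold change was -0.82 (SE 0.09, 95% interval -1.06 to -0.58, adjusted p = 0.0696 in limma), and Hrk was not called. Hrk passed the filter on low values through the controls alone, and its mean coverage per base was 12.2 and 10.8 in control and 4.99 and 3.75 in Isl1cKO. Over 6 alternatives that used all 4 libraries, the adjusted p in limma ranged from 0.0361 to 0.156. It was lowest with the replicate number as a block, which was not taken to pair the samples, and highest with no filter. With FPKM, with a filter at 5 TPM and without control replicate 1 or 2, Hrk did not pass the filter, so it could not be called there.

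Ganglion cell markers stood lower beside Hrk: in 13 of 15 listed markers both Isl1cKO values were below both controls, as in 30.0% of all genes. Of the 15, 0 were called (0.493% of all genes). At an unadjusted p under 0.05 there were 13, all lower, where 8.92% of all genes were lower. Pou4f3, among these 13, entered the test through its control values alone, so it could enter it only by being higher there. The list of 15 also holds Isl1, the targeted gene, in which the groups overlapped. The summed level of the 15 markers was 4077 and 3491 TPM in control and 2266 and 1561 TPM in Isl1cKO. Of the defining markers, Rbpms stood at 63.3 and 52.8 against 26.0 and 29.3 TPM and Pou4f1 at 19.6 and 19.7 against 9.66 and 4.16 TPM. Pou4f3 was listed at 0 in Isl1cKO replicate 2, while Pou4f2 stood at 124 to 126 TPM in control and 120 to 135 TPM in Isl1cKO. The part of these cells in the Hrk values was not tested. In whole tissue, fewer cells of a type and less RNA per cell cannot be told apart.

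Bmf (chromosome 2, 118528757 to 118549686, minus strand), a BH3-only protein tethered to the cytoskeleton, stood at 6.57 and 6.11 TPM in control and at 8.84 and 13.7 TPM in Isl1cKO. The Isl1cKO mean was 11.3 ± 3.47 TPM against 6.34 ± 0.328 TPM in control (SD, n = 2). The groups did not overlap, and the libraries labelled Isl1cKO differed from each other by more than replicate 1 differed from control. The log2 fold change was 0.72 (SE 0.21, 95% interval 0.15 to 1.28, adjusted p = 0.327 in limma), and leaving out Isl1cKO replicate 2 gave 0.42, leaving out replicate 1 gave 1.01.

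The other BH3-only genes showed smaller differences. Bbc3, which encodes the p53 target Puma, stood at 22.6 and 22.5 TPM in control and at 20.1 and 19.7 TPM in Isl1cKO, with a log2 fold change of -0.17 (95% interval -0.38 to 0.03, adjusted p = 0.478 in limma). The values within each group were nearly equal. Pmaip1, which encodes the p53 target Noxa, was low, at 0.535 and 0.493 TPM in control and at 0.300 and 0.376 TPM in Isl1cKO, and was not tested. Bcl2l11, which encodes Bim, ranged from 27.5 to 30.5 TPM over the 4 libraries. Bad, a BH3-only protein inactivated by survival signals, ranged from 51.0 to 59.0 TPM. Bid, which links death receptors to mitochondria, ranged from 14.0 to 16.1 TPM, and Bik from 0.990 to 1.47 TPM. In these last 4 genes the groups overlapped, with absolute log2 fold changes under 0.06. The summed level of the 8 BH3-only genes was 130 and 135 TPM in control and 134 and 133 TPM in Isl1cKO.

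**Figure D2:**
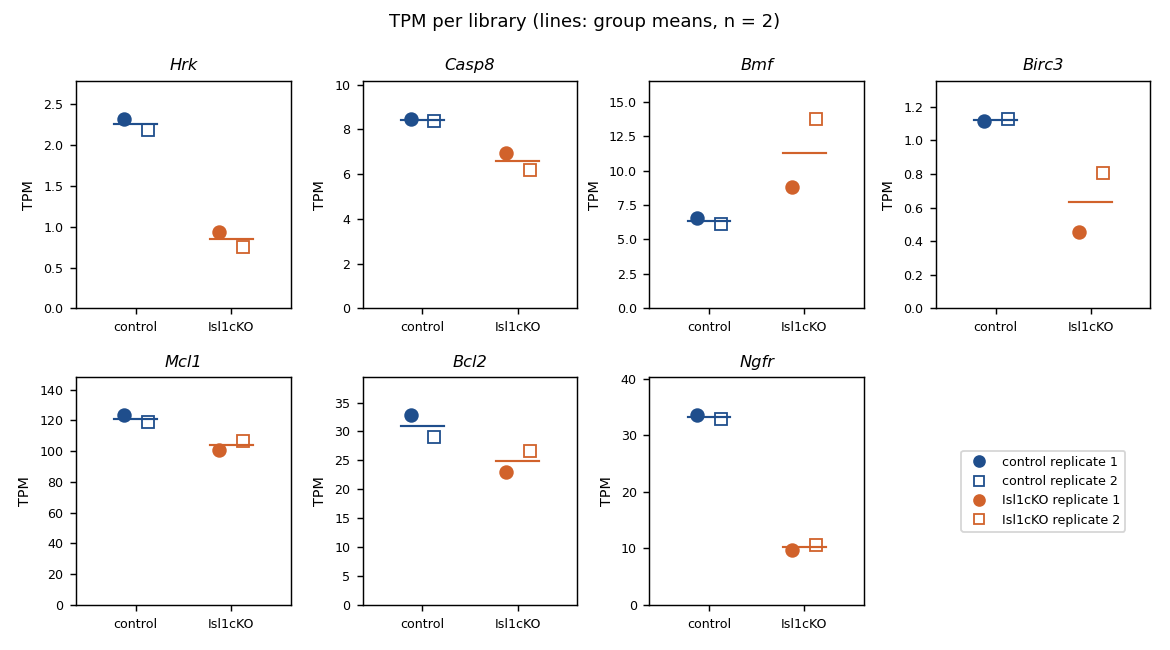
TPM in each library for the 6 members with an unadjusted p under 0.05 and for Ngfr, with group means as lines (n = 2 each). Each vertical axis starts at 0; the 2 groups do not overlap in any panel, and the Isl1cKO replicates of Bmf lie apart at 8.84 and 13.7 TPM.

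Among the caspases the largest difference was that of Casp8. Casp8 (chromosome 1, 58795374 to 58847503), the initiator caspase of death receptors, stood at 8.47 and 8.37 TPM in control and at 6.96 and 6.18 TPM in Isl1cKO, without overlap. The log2 fold change was -0.32 (SE 0.09, 95% interval -0.56 to -0.08, adjusted p = 0.314 in limma). Casp9, the initiator of the apoptosome, stood at 25.3 and 23.8 TPM in control and at 23.1 and 22.7 TPM in Isl1cKO (adjusted p = 0.706 in limma). Casp2, an initiator tied to p53 signalling, was the most abundant caspase of the set, at 81.9 and 80.7 TPM in control and at 84.9 and 82.9 TPM in Isl1cKO. Casp6, an executioner, ranged from 53.6 to 62.0 TPM. The summed level of the 5 caspases was 171 and 175 TPM in control and 177 and 166 TPM in Isl1cKO, so the groups overlapped.

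Among the apoptosome and release genes, Apaf1, the scaffold of the apoptosome, stood at 23.7 and 21.7 TPM in control and at 21.5 and 19.1 TPM in Isl1cKO (log2 fold change -0.15, adjusted p = 0.639 in limma). Cycs, cytochrome c, stood at 68.6 and 64.4 TPM in control and at 62.9 and 59.4 TPM in Isl1cKO (log2 fold change -0.12, adjusted p = 0.665 in limma). Both pairs were separated, by gaps within the spread of a group. Cycs has many processed copies in the genome, so the assignment of its reads is uncertain. Diablo, which releases caspases from their inhibitors, ranged from 81.6 to 89.7 TPM with the groups overlapping (log2 fold change 0.00469).

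Among the caspase inhibitors, the direction for Xiap and Birc2 depended on a single library. Xiap, a direct inhibitor of caspases, stood at 51.3 and 53.6 TPM in control and at 53.8 and 42.2 TPM in Isl1cKO. Birc2, which encodes cIAP1, stood at 44.7 and 42.4 TPM in control and at 43.7 and 34.7 TPM in Isl1cKO. In both genes Isl1cKO replicate 2 was below the other 3 libraries, and without it the log2 fold changes went from -0.13 to 0.04 and from -0.16 to 0.01. Birc3 (chromosome 9, 7848701 to 7873170, minus strand), which encodes cIAP2, stood at 1.12 and 1.13 TPM in control and at 0.456 and 0.806 TPM in Isl1cKO. It passed the filter through the controls alone, and its log2 fold change was -0.39 (SE 0.13, 95% interval -0.73 to -0.04, adjusted p = 0.366 in limma). This value was -0.23 without Isl1cKO replicate 1, -0.54 without Isl1cKO replicate 2 and -0.78 at a pseudocount of 0.1. Birc2 and Birc3 are neighbouring paralogs, and how reads were divided between them is not recorded.

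Isl1cKO replicate 2 was often an extreme library, in the members as over all genes. Of the 15 tested genes in which the groups overlapped, it was the lowest of the 4 libraries in 8 (Bcl2l2, Bad, Bik, Casp6, Diablo, Xiap, Birc2 and Mdm2) and the highest in 4 (Bak1, Bid, Bcl2l11 and Zmat3). Over the 7702 genes whose groups overlapped it was the lowest in 45.6% and the highest in 21.6%.

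No gene of the p53 response was called, and most values lay close together over the 4 libraries. Trp53 (chromosome 11, 69580359 to 69591873) stood at 144 and 143 TPM in control and at 145 and 163 TPM in Isl1cKO (log2 fold change 0.10, 95% interval -0.16 to 0.35, adjusted p = 0.751 in limma). Leaving out Isl1cKO replicate 2 gave 0.0109, and leaving out its replicate 1 gave 0.19. Mdm2 (chromosome 10, 117688875 to 117710758, minus strand), the ubiquitin ligase that holds p53 down and is its target, stood at 79.0 and 77.7 TPM in control and at 83.2 and 70.0 TPM in Isl1cKO. Its groups overlapped, and the log2 fold change of -0.04 (95% interval -0.34 to 0.26) had an adjusted p of 0.925 in limma. The ratio of Mdm2 to Trp53 was 0.548 and 0.543 in control and 0.575 and 0.428 in Isl1cKO, with the spread within Isl1cKO covering both controls.

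None of the 7 tested p53 targets reached an unadjusted p under 0.05, where 12.1% of all genes tested did. All 7 log2 fold changes lay within 0.25 of zero, as did 79.5% of all genes. In alternatives with all 4 libraries that of Plk2 reached 0.29. Cdkn1a (chromosome 17, 29090979 to 29100722), the cell cycle inhibitor p21 whose upstream promoter window holds 2 half-sites, stood at 5.45 and 4.75 TPM in control and at 4.68 and 4.60 TPM in Isl1cKO (log2 fold change -0.11, 95% interval -0.36 to 0.14). Ccng1 (chromosome 11, 40748552 to 40755286, minus strand), cyclin G1, stood at 32.0 and 32.9 TPM in control and at 33.9 and 33.5 TPM in Isl1cKO (log2 fold change 0.05, 95% interval -0.15 to 0.26). In both genes the groups did not overlap, and the gap between them was smaller than the difference between the 2 controls.

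Aen, an apoptosis-enhancing nuclease, ranged from 33.1 to 35.1 TPM, and Zmat3, a zinc finger RNA-binding protein, from 12.6 to 13.9 TPM. Eda2r, a receptor of the tumour necrosis factor receptor family, ranged from 1.33 to 1.50 TPM, and Phlda3, an inhibitor of Akt, from 5.09 to 7.11 TPM. In these 4 genes the groups overlapped. Plk2, a polo-like kinase, stood at 6.19 and 6.83 TPM in control and at 7.28 and 8.51 TPM in Isl1cKO, without overlap, and its log2 fold change of 0.24 (95% interval -0.05 to 0.53) had an adjusted p of 0.485 in limma. Perp, a membrane protein of cell junctions, stood at 0.404 and 0.413 TPM in control and at 0.578 and 0.599 TPM in Isl1cKO and was not tested. The summed level of the 8 targets was 101 and 99.9 TPM in control and 98.7 and 103 TPM in Isl1cKO. The 95% intervals of the 7 tested targets reached from -0.54 to 0.53, so differences of that size on the log2 scale remain possible for the least precise of them.

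**Figure D3:**
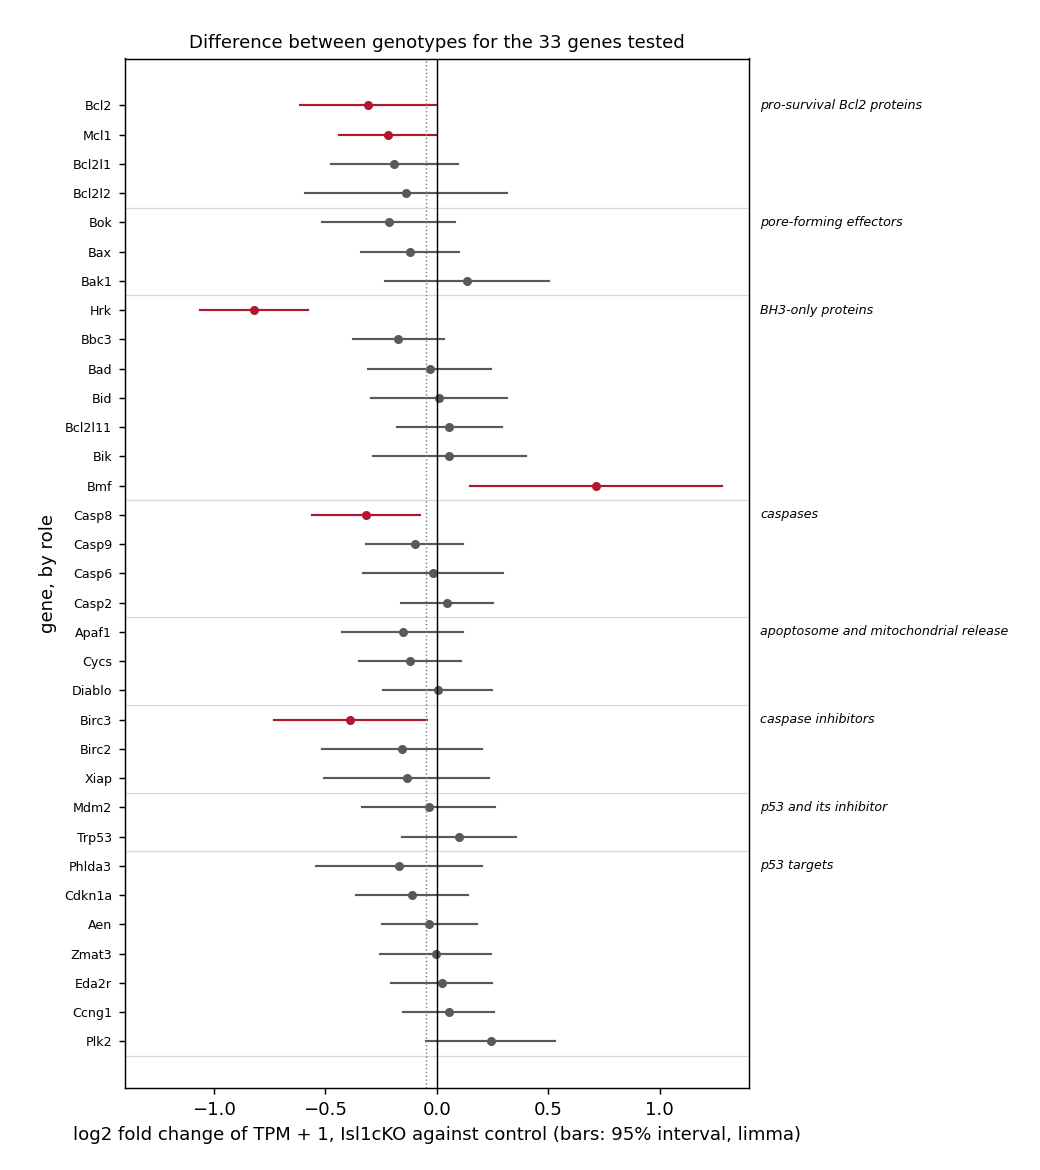
Log2 fold change of TPM + 1 with its 95% interval from limma for the 33 tested genes, grouped by role; values below 0 are lower in Isl1cKO. Red marks an unadjusted p under 0.05 and the dotted line the median of all genes (-0.05); Hrk at -0.82 and Bmf at 0.72 lie at the ends.

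Other genes of the same pathways were read from a list of 71 genes, of which 58 were tested. Over these, 1 was called, against 0.493% of all genes, and 10 had an unadjusted p under 0.05 (5 higher, 5 lower), against 12.1% of all genes (3.20% higher, 8.92% lower). The median log2 fold change was -0.02. Ngfr (chromosome 11, 95568821 to 95587698, minus strand), the neurotrophin receptor p75 with a death domain, fell from 33.5 and 32.9 TPM in control to 9.79 and 10.5 TPM in Isl1cKO. Its log2 fold change was -1.62 (SE 0.08, adjusted p = 0.0126 in limma). The call was kept in each of 8 alternatives with all 4 libraries (adjusted p 0.00295 to 0.0484). It was lost without control replicate 1 (adjusted p = 0.200), control replicate 2 (0.157) or Isl1cKO replicate 2 (0.0646), while the log2 fold change stayed between -1.67 and -1.57 on leaving out each library; there a lone library is assumed to vary like the other group. The ganglion cell markers given beside Hrk stood lower in the same libraries, and their part in the Ngfr values was not tested.

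The largest positive log2 fold changes of that list belonged to Bnip3, a mitochondrial BH3-like protein of mitophagy, Ddit4, an inhibitor of mTORC1, and Sertad1, a cell cycle regulator. Bnip3 stood at 53.4 and 42.1 TPM in control and at 76.1 and 122 TPM in Isl1cKO (log2 fold change 1.01, adjusted p = 0.287 in limma). Ddit4 stood at 73.1 and 51.8 TPM in control and at 99.2 and 146 TPM in Isl1cKO (log2 fold change 0.95, adjusted p = 0.297 in limma). Sertad1 stood at 3.53 and 5.14 TPM in control and at 7.04 and 8.31 TPM in Isl1cKO (log2 fold change 0.71, adjusted p = 0.276 in limma). In Bnip3, Ddit4 and Sertad1, as in Bmf, Isl1cKO replicate 2 was the highest library.

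After Ngfr, the most negative were Trp53i11, at 139 and 123 against 104 and 88.8 TPM (log2 fold change -0.44, adjusted p = 0.300 in limma), and Rprm, a p53-induced inhibitor of the cell cycle. Rprm stood at 67.2 and 65.7 TPM in control and at 52.7 and 52.6 TPM in Isl1cKO (log2 fold change -0.33, adjusted p = 0.251 in limma).

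Microglia, which engulf dying cells, had 9 of 10 tested markers at a positive log2 fold change, where 63.8% of all genes tested were below 0. Of the 10, 0 were called (0.493% of all genes). At an unadjusted p under 0.05 there were 4, all higher, where 3.20% of all genes were higher. The summed level over the 11 listed was 61.0 and 63.5 TPM in control and 76.9 and 92.2 TPM in Isl1cKO. The groups did not overlap in 6 of the 10, all higher, and overlapped in 4. Of their defining markers, Cx3cr1 stood at 4.54 and 4.77 against 6.01 and 7.55 TPM. Csf1r stood at 7.20 and 8.24 against 7.66 and 10.4 TPM, with the groups overlapping. C1qa was higher without overlap, at a log2 fold change of 0.29 (95% interval -0.05 to 0.63 in limma). Aif1 had the only negative log2 fold change of the 10, at -0.04. The part of these cells in the members' values was not tested.

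**Figure D4:**
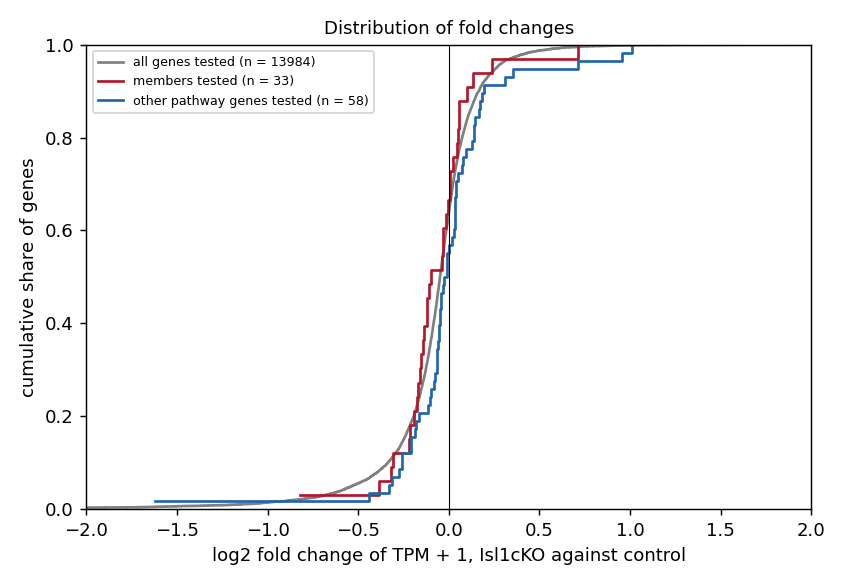
Cumulative share of genes against log2 fold change for all 13984 genes tested (grey), the 33 members (red) and the 58 other pathway genes (blue), drawn from -2 to 2. The 3 curves run close together around zero, and the blue curve starts at Ngfr (-1.62).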

How the data were processed

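Per the labels' protocols, dissected retinae were frozen in Trizol, and mRNA enriched by its poly(A) tail went into a directional library kit. The submitters' processing notes name Trimmomatic, FastQC, HISAT2, SAMtools, StringTie and DESeq2 and the build mm10, with no versions and no roles. How strand was used in quantification is not given in the sources used here.

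Per the file headers, the authors deposited for each library a table of mean coverage per base, FPKM and TPM per gene. The TPM column was used throughout, the deposited FPKM in an alternative, and the deposited coverage signal for depth and for Hrk only. Depth in reads is unknown; dividing deposited coverage by FPKM gave 12.6 to 14.3 gigabases aligned per library. TPM on repeated rows of a gene was summed.

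Values log2(TPM + 1) of the 13984 genes with at least 1 TPM in at least 2 of the 4 libraries were fitted in R 4.3.3 by limma 3.58.1 on group alone, with a constant variance prior and Benjamini-Hochberg adjustment over all genes tested (threshold 0.05). The fit was tested on simulated data. The 38 genes, the role groups and the lists were chosen with earlier results of these data known. Every member is named; of the other pathway genes, those called and the 3 highest and 3 lowest fold changes were. Alternatives were a pseudocount of 0.1, no filter, a filter at 5 TPM, FPKM, median-ratio scaling, a mean-variance trend, the replicate number as a block, leaving out genes on several rows, and leaving out each library. Gene positions are those of the authors' tables, and all 38 overlap their gene in RefSeq's GRCm38.p6 table. Promoter sequences are RefSeq's, of that build, and printed stretches stop at the start site. In 39 of 47 windows, including those printed, the bases after the start lie in a GENCODE M21 transcript of the gene.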

Additional observations from a re-analysis of the deposited data

How the results depend on the processing

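The count of members called was 0 under 7 of 8 alternatives with all 4 libraries, though Hrk was not tested with FPKM or the filter at 5 TPM. With the replicate block the count was 1 (Hrk), and 265 over all genes. The deviations of the replicates numbered 1 correlated at 0.126 across genes, and, with only 2 pairs and labels that name no common litter or day, the numbers were not taken to pair the samples. The count of 69 over all genes was 44 at a pseudocount of 0.1, 15 with no filter, 127 with FPKM and 110 with a mean-variance trend, and ranged from 3 to 136 without one library. The count of 1 among other pathway genes ranged from 0 to 1 without one library. The cause of these shifts was not tested.

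With FPKM and with median-ratio scaling, group medians moved to -0.15 and -0.15 for pro-survival genes, -0.0681 and -0.0627 for pore-forming effectors and -0.00757 and -0.00279 for caspases, and to 0.0478 with median-ratio scaling for p53 targets. Without one library they ranged from -0.27 to -0.19 for pro-survival genes, -0.142 to -0.0727 for effectors, -0.0990 to 0.0787 for BH3-only genes, -0.113 to -0.0130 for caspases, -0.306 to 0.00680 for caspase inhibitors and -0.0572 to -0.00614 for p53 targets.

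Uncalled genes near zero changed sign with FPKM and median-ratio scaling: Bad (0.0175 and 0.0239), Casp6 (0.0324 and 0.0393), Mdm2 (0.0125 and 0.0187), Zmat3 (0.0380 and 0.0478) and Aen (0.0155 and 0.0221). Without one library, signs also changed, with log2 fold changes of -0.36 to 0.083 for Bcl2l2, -0.0371 to 0.31 for Bak1, -0.086 to 0.10 for Bid, -0.13 to 0.0714 for Bad, -0.099 to 0.21 for Bik, -0.00643 to 0.12 for Bcl2l11, -0.12 to 0.0838 for Casp6, -0.0628 to 0.0722 for Diablo, -0.31 to 0.0371 for Xiap, -0.32 to 0.0068 for Birc2, -0.16 to 0.0854 for Mdm2, -0.0226 to 0.0661 for Eda2r and -0.0726 to 0.063 for Zmat3.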
